A study of Saccharomyces cerevisiae with 142 samples.

Results

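Budding yeast (Saccharomyces cerevisiae) cells in which all 6 B-type cyclin genes are disrupted were followed from small unbudded cells into the stretch in which G1 cyclins, replication genes and bud wall genes come on. The comparison set arrays from 86 to 118 min against arrays from 30 to 54 min of the same 2 time courses, 9 of the 142 arrays of the series, all arrays of the cyclin mutant with time labels in these windows. Course 1 gave the arrays at 86, 102 and 118 min and those at 38 and 54 min. Course 2 gave the arrays at 94 and 110 min and those at 30 and 46 min, so the courses were sampled at alternate times. Wild type at 30 °C, with 5 arrays at 86 to 118 min and 4 at 30 to 54 min from 2 courses, served for comparison.

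The mutant is labelled as a MATa strain of the BF264-15DU background. It carries disruptions marked with URA3 in clb1, LEU2 in clb2, TRP1 in clb3, HIS2 in clb4, ARG4 in clb5 and APE1 in clb6, and a GAL1-CLB1 construct marked with LEU2. Glucose represses the GAL1 promoter, and both genotypes were kept in rich dextrose medium with 1 M sorbitol at 30 °C after elutriation, which selects small G1 cells by size in a centrifuge. Total RNA was labelled with biotin and hybridised to Affymetrix arrays. The labels mark both groups as re-analysed from earlier work and number 2 replicates each. Nothing in them says that the courses began from separate cultures, and arrays of a course are serial samples. The p-values therefore measure the spread between these arrays. Each window pools arrays of different times, so this spread holds change inside a window, and the rest of it may be technical.

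Start is the step in G1 at which a budding yeast cell commits to division. The G1 cyclin Cln3 with the kinase Cdc28 inactivates the repressor Whi5, which frees the factors SBF (Swi4 with Swi6) and MBF (Mbp1 with Swi6). SBF drives the cyclins Cln1 and Cln2 and genes of the bud and its wall, and MBF drives genes of DNA synthesis. The B-type cyclins come afterwards: Clb5 and Clb6 fire replication origins, and Clb1 to Clb4 build the spindle and drive mitosis. Among these, Clb1 and Clb2 turn SBF genes down and switch the bud from tip growth to growth all over.

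The values are log2 of the deposited probe-set intensities, 1 probe set for each of 5449 genes. A difference is the mean at 86 to 118 min minus the mean at 30 to 54 min, with the course held as a block, and comes with its standard error (SE). A gene rose or fell where limma gave an adjusted p under 0.05, and changed strongly where it also moved at least 2-fold. Each value averages over a culture, so a larger share of cells past Start and more RNA per cell cannot be told apart.

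Some properties of the arrays moved with the windows. For TDH1, a glyceraldehyde-3-phosphate dehydrogenase gene, the 3′ control probe set lay 1.89 to 2.29 above the 5′ one at 86 to 118 min, and 1.42 to 1.69 above it at 30 to 54 min, with no overlap. For the actin gene ACT1 the gap was 0.388 to 0.584 at 86 to 118 min and 0.480 to 0.668 at 30 to 54 min. Their part in the results was not tested. The arrays at 86 min of course 1 and 46 min of course 2 stood apart from the arrays next to them in their own course, in largely the same genes. At 86 min 139 genes and at 46 min 375 genes lay more than 0.7 above the mean of these neighbours, and 128 genes did so in both, 92.1% and 34.1% of these genes. Of those 128 genes, 103 were dim, below the 0.25 quantile of mean intensity over all genes. CLB2 was among them, at 0.91 above its neighbours at 86 min and 1.43 at 46 min. Counted in both directions, 145 genes at 86 min and 447 at 46 min lay beyond 0.7. The 54 min array of course 1 had 136 such genes and the 62 min array of course 2 had 158. By this amount the 86 min array did not stand out, but only 37 and 22 genes of those other arrays lay above their neighbours. In wild type, the values of course 2 appeared to lie 1 probe set out of place as deposited, and were moved before use, which took their correlation with course 1 over probe sets to 0.996, from 0.0461.

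Over all genes 894 rose (16.4%) and 922 fell (16.9%), 33.3% in all. Strong changes numbered 282 rises (5.18%) and 243 falls (4.46%), 9.63% in all. The median difference of all genes was 0.02. The 86 to 118 min arrays lay entirely above the 30 to 54 min arrays in 799 genes (14.7%) and entirely below in 781 (14.3%). Counts moved with single arrays: without the 38 min array 588 genes rose and 560 fell, without the 94 min array 560 and 481, without the 110 min array 562 and 478, and without the 102 min array 644 and 595. Without the 46 and 86 min arrays together 932 rose and 785 fell. The 15 largest rises were those of TOS6, SRL1, RNR1, SIM1, PCL1, CLN2, GIN4, MCD1, YOX1, CSI2, SCW10, PRY2, CRH1, CLN1 and ALG14, between 5.00 and 3.53 on the log2 scale. All but SIM1, PRY2 and ALG14 are on lists described below. The lists share members, so their counts are not independent. Each list count below stands against the 16.4% of all genes that rose and the 16.9% that fell. No list was tested against these shares. TOS6 counts among SBF targets and bud wall genes, and RNR1 among MBF targets and genes of dNTP supply. The 15 largest falls, between -4.98 and -3.43, were those of NQM1, FMP16, YGP1, GRE1, TKL2, SOL4, PAI3, ALD3, MSC1, CTT1, GSP2, HSP12, SPI1, GAD1 and HBT1, of which 8 are on the list of general stress genes.

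**Figure D1:**
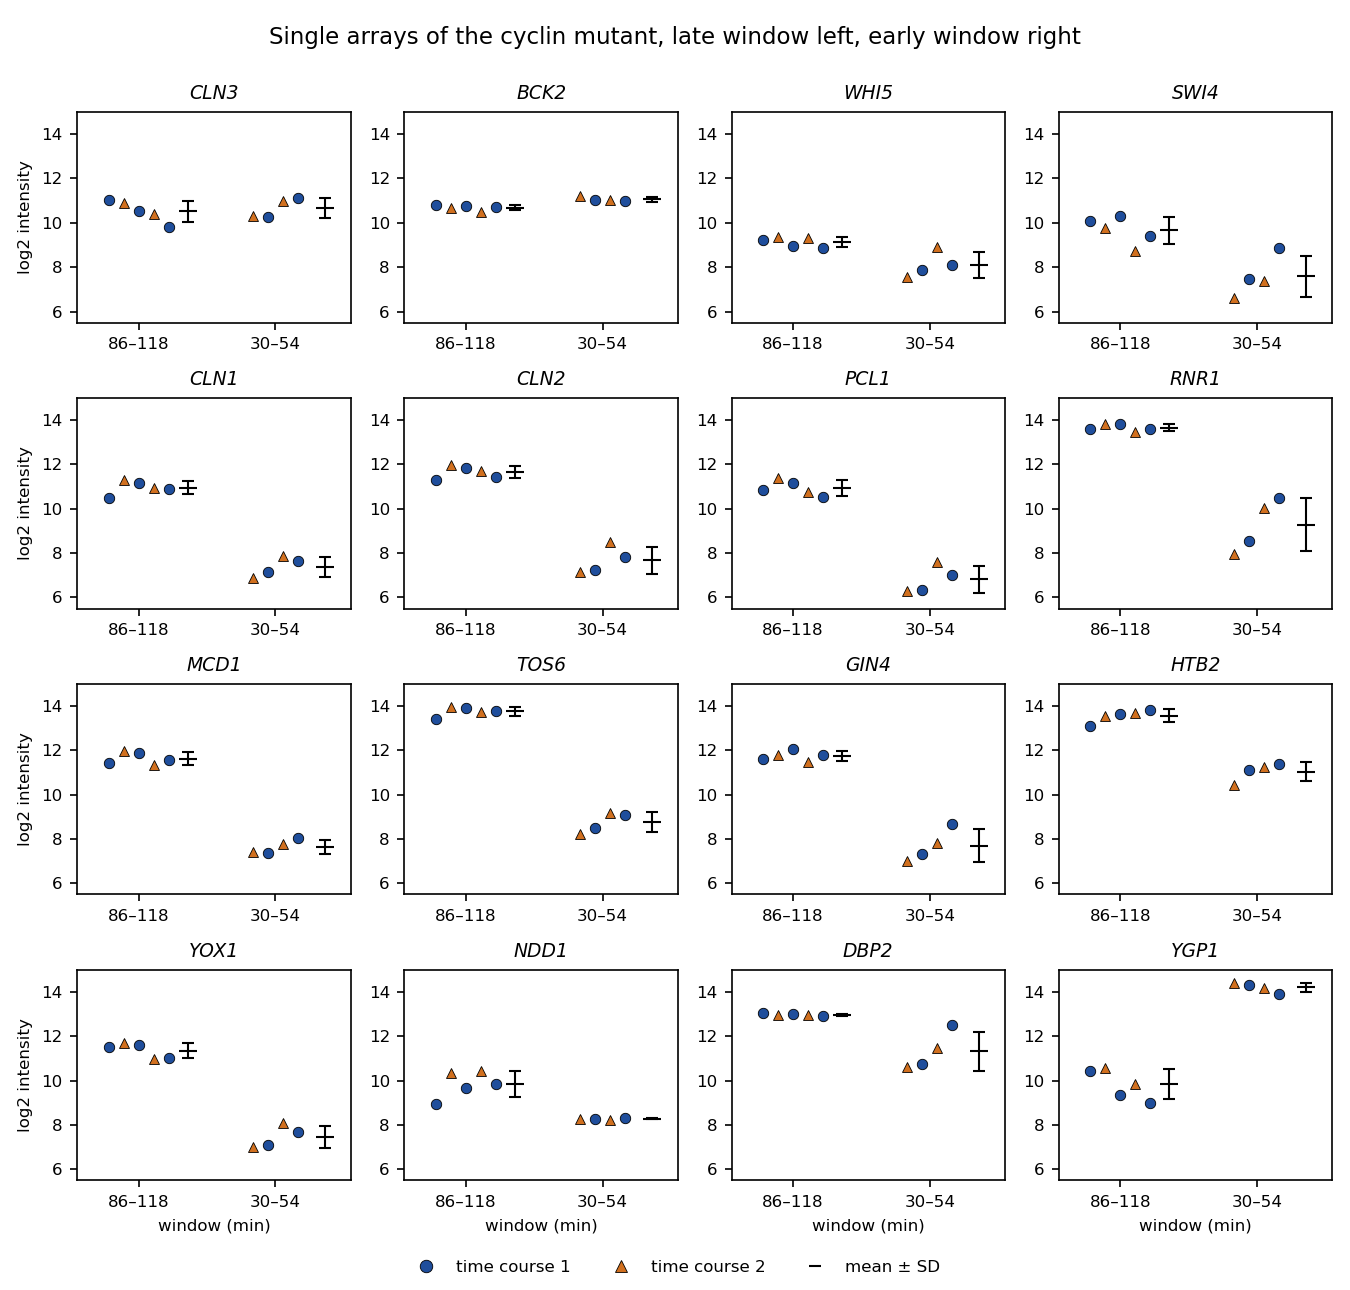
Log2 intensity of 16 genes on single arrays of the cyclin mutant, with 86 to 118 min at left and 30 to 54 min at right in each panel. Circles are course 1, triangles course 2, and bars the mean ± SD (n = 5 and n = 4). CLN3 overlaps between the windows, CLN1, CLN2, PCL1, TOS6 and MCD1 lie apart by more than 2 units, and YGP1 is lower at 86 to 118 min.

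Of 22 measured regulators of Start 15 rose, 13 of them strongly, and 1 fell, with a median of 1.11, against 0.02 over all genes. The largest rises on the list were those of the cyclins PCL1, CLN2 and CLN1 and the repressors YOX1, NRM1 and YHP1, and the upstream activator CLN3 (YAL040C) did not pass. CLN3 read 11.04, 10.88, 10.51, 10.38 and 9.81 at 86 to 118 min, against 10.30, 10.25, 10.96 and 11.11 at 30 to 54 min. The windows overlap, and the difference of -0.13 (SE 0.30) had an adjusted p of 0.76. It stood highest between the windows, at 11.33, 11.16 and 11.50 at 62, 70 and 78 min. BCK2, a second activator of Start that works without Cln3, was the regulator that fell by 0.38 (SE 0.09, adjusted p = 0.0173). Leaving out the 94 or the 110 min array ended this call, with an adjusted p of up to 0.0590.

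WHI5 (YOR083W), the repressor that Cln3 inactivates, read 9.21, 9.36, 8.96, 9.32 and 8.86 at 86 to 118 min and 7.55, 7.86, 8.92 and 8.10 at 30 to 54 min. The windows meet at the 46 min array, and the rise of 1.06 (SE 0.25) had an adjusted p of 0.0145. Without the 38 min array that p was 0.0513. SWI4 (YER111C), the DNA-binding part of SBF, read 10.09, 9.79, 10.29, 8.72 and 9.39 at 86 to 118 min and 6.63, 7.47, 7.39 and 8.85 at 30 to 54 min. It rose by 1.98 (SE 0.37, adjusted p = 0.00636), with the 54 min array above the 110 min one. SWI6, the subunit common to SBF and MBF, rose by 0.82 (SE 0.11), and MBP1, the DNA-binding part of MBF, had a difference of -0.04 (SE 0.17) that did not pass. STB1, which binds Swi6, rose by 1.32 (SE 0.22), and CDC28, the kinase that the cyclins activate, by 1.15.

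The G1 cyclins CLN1, CLN2 and PCL1 rose more than 10-fold. CLN2 (YPL256C) read 11.29, 11.98, 11.82, 11.69 and 11.45 at 86 to 118 min, against 7.15, 7.23, 8.49 and 7.81 at 30 to 54 min. No array of either window came within 2 units of the other window, and the rise was 4.01 (SE 0.27), or 16.1-fold, with an adjusted p of 0.000125. CLN1 (YMR199W), its close relative, read 10.49, 11.28, 11.18, 10.95 and 10.87 at 86 to 118 min and 6.87, 7.16, 7.89 and 7.63 at 30 to 54 min. It rose by 3.58 (SE 0.24), or 11.9-fold, again with no overlap. PCL1 (YNL289W), a cyclin of the kinase Pho85 that acts in G1, rose by 4.15 (SE 0.30), or 17.7-fold, with 10.51 to 11.40 at 86 to 118 min and 6.29 to 7.62 at 30 to 54 min. PCL2, its relative, rose by 1.97 (SE 0.34), while PCL9, which peaks at the exit from mitosis in wild type, differed by -0.02 (SE 0.08) and did not pass. The repressors that close the G1 program rose as well: NRM1, which represses MBF genes, by 3.50 (SE 0.37), YOX1, which represses early G1 genes, by 3.89, and its relative YHP1 by 2.35 (SE 0.20). SIC1, the inhibitor of Clb kinases, differed by 0.17 (SE 0.15) and did not pass. FAR1, the inhibitor used in mating, differed by -0.27 and did not pass. It stood high between the windows, at 10.91, 11.10 and 10.46 at 62, 70 and 78 min, against 8.50 to 10.78 at 86 to 118 min and 8.49 to 10.70 at 30 to 54 min. MSA1, which binds SBF and MBF, differed by 0.45 (SE 0.48) and did not pass. It read 8.29 to 10.40 at 86 to 118 min and 8.11 to 9.56 at 30 to 54 min, with 9.94, 10.28 and 10.10 between.

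All 22 measured SBF targets rose, 21 of them strongly, with a median of 2.66, and 27 of 28 MBF targets rose, 26 of them strongly, with a median of 2.35. The 2 lists were drawn from textbook knowledge with results of these arrays known. TOS6 (YNL300W), a predicted cell wall glycoprotein, was the highest rise on the array set. It read 13.41, 13.95, 13.91, 13.71 and 13.78 at 86 to 118 min, against 8.23, 8.51, 9.19 and 9.07 at 30 to 54 min. The gap between the windows exceeded 4 units, and the rise was 5.00 (SE 0.22), or 32.1-fold (adjusted p = 4.94e-05). SRL1, another wall mannoprotein, rose by 4.46 (SE 0.20). OCH1, which begins the outer mannose chain of glycoproteins, was the lowest SBF target at 0.57, and did not pass without the 38 or the 94 min array or without the 46 and 86 min arrays (adjusted p of up to 0.157).

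Among MBF targets RNR1 (YER070W), the large subunit of ribonucleotide reductase, read 13.57, 13.80, 13.80, 13.46 and 13.60 at 86 to 118 min and 7.98, 8.55, 10.04 and 10.50 at 30 to 54 min. Its 30 to 54 min arrays already spread over more than 2 units in order of time, and the rise was 4.35 (SE 0.49), or 20.4-fold (adjusted p = 0.000774). MCD1 (YDL003W), the cohesin subunit that separase cleaves, read 11.34 to 11.94 at 86 to 118 min and 7.35 to 8.05 at 30 to 54 min, and rose by 3.98 (SE 0.20), or 15.7-fold. SMC1, another cohesin subunit, was the MBF target that did not pass, at 0.83 (adjusted p = 0.0756).

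**Figure D2:**
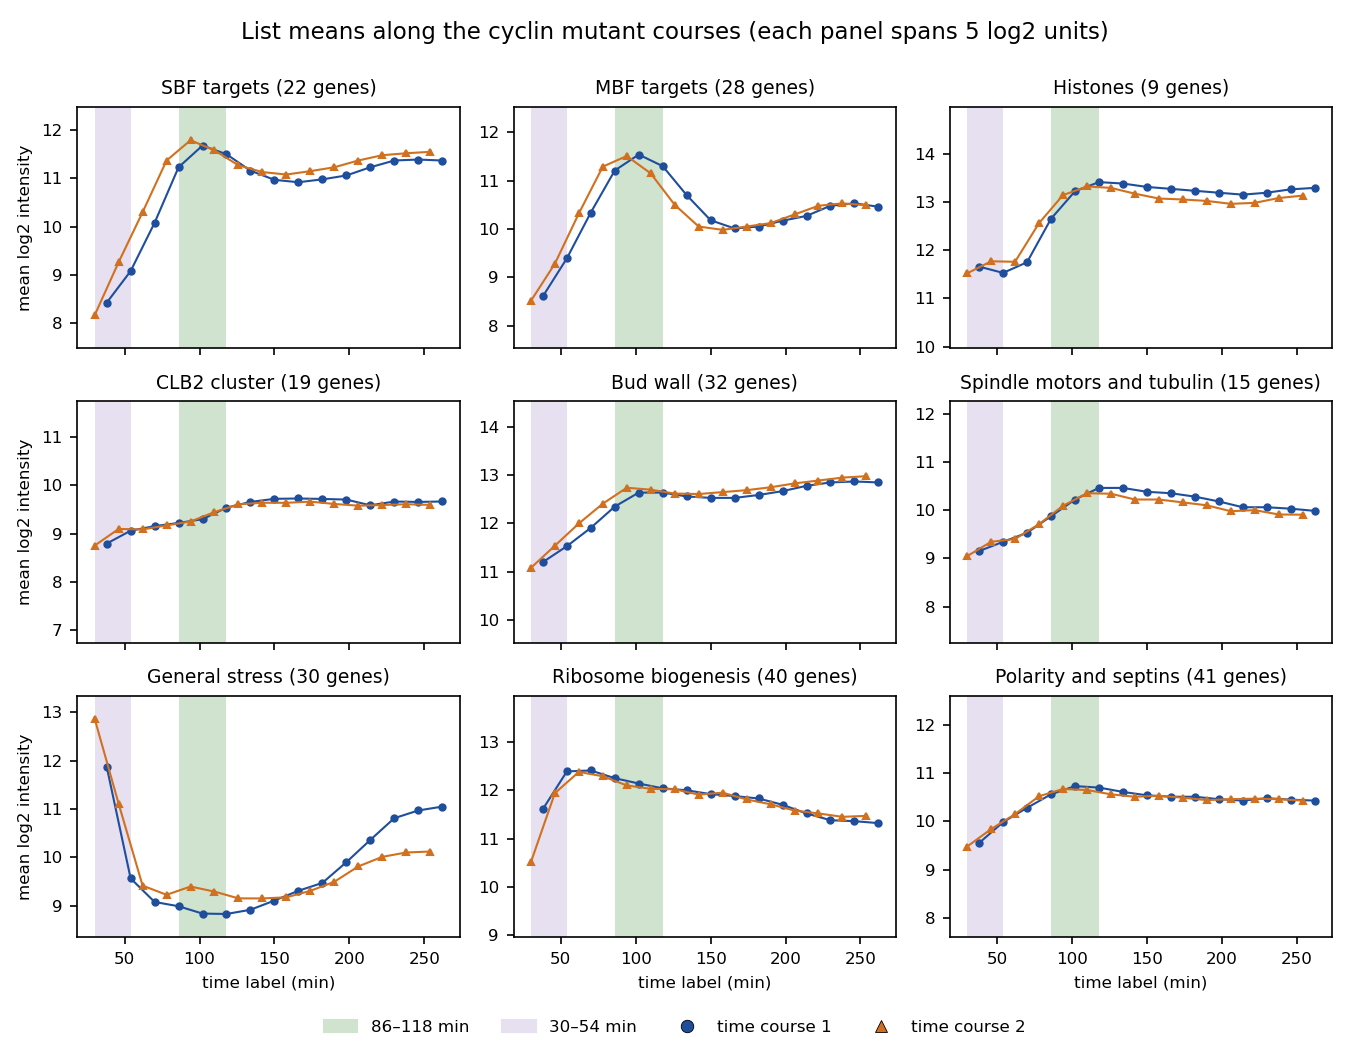
Mean log2 intensity of 9 gene lists against the time label (min) along both courses of the cyclin mutant, circles for course 1 and triangles for course 2, with the windows shaded and each panel spanning the same range. SBF targets, MBF targets and bud wall genes climb between the windows, histones climb later, the CLB2 cluster moves little, and general stress genes drop before 62 min.

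The machinery of the replication fork rose almost throughout. Of 36 measured members 32 rose, 21 strongly, and none fell, with a median of 1.29. POL1 (YNL102W), the catalytic subunit of the priming polymerase alpha, read 12.23, 12.42, 12.57, 11.91 and 12.21 at 86 to 118 min, against 7.88, 8.56, 9.38 and 10.34 at 30 to 54 min. The windows lie apart, and the rise was 3.18 (SE 0.43, adjusted p = 0.00153). POL30, the sliding clamp PCNA, rose by 3.52 (SE 0.42), CDC45, part of the moving helicase, by 2.63 (SE 0.32), and RFA1, the largest subunit of the single-strand binding protein, by 1.72 (SE 0.19). CDC7, the kinase that fires origins with Dbf4, rose by 0.92 (SE 0.14), and DBF4 by 0.62 (SE 0.14). SLD3, RFC4, DPB11 and DPB4 did not pass, at 0.37 to 0.12.

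Nucleotide supply and licensing were more mixed. Of 10 genes of dNTP supply 5 rose and 1 fell, with a median of 0.53, and none fell without the 30, 38, 54, 94, 102, 110 or 118 min array. DUN1, the checkpoint kinase that raises reductase activity, rose by 2.93 (SE 0.22), and CDC21, thymidylate synthase, by 2.79 (SE 0.42). RNR2 and RNR4, the small reductase subunits, differed by 0.22 and -0.20, and neither passed. Of 14 licensing genes, which load the helicase on origins, 2 rose and 1 fell, with a median of 0.20. Without the 38, 94, 102, 110 or 118 min array 1 rose, and without the 54 min array 4. Over all genes 16.4% rose and 16.9% fell, and the 2 rises and 1 fall among 14 do not exceed these shares. CDC6, the loading factor, rose by 1.19 (SE 0.27), and it read higher at 62, 70 and 78 min, with 9.25, 9.32 and 9.81, than its 8.29 to 9.24 at 86 to 118 min. Of 10 genes that Mcm1 serves in early G1, among them the MCM helicase genes, only SWI4 and CDC6 rose. This count is near the share of all genes that rose. MCM2, a helicase subunit, differed by 0.37 (SE 0.38) and did not pass. It too stood high between the windows, at 11.29, 11.56 and 11.51.

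Of 15 genes of sister chromatid cohesion and repair 13 rose, 12 strongly, with a median of 1.38, among them SMC3, the cohesin ATPase, at 3.00 (SE 0.36), and CDC9, DNA ligase, is a fork gene that rose by 1.98 (SE 0.16).

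All 9 measured histone genes rose, 7 strongly, with a median of 1.32. HTB2 (YBL002W), a copy of histone H2B, read 13.07, 13.55, 13.64, 13.69 and 13.83 at 86 to 118 min, against 10.44, 11.10, 11.23 and 11.38 at 30 to 54 min. The windows do not meet, and the rise was 2.51 (SE 0.22, adjusted p = 0.000301). HHO1, the linker histone, rose most, by 2.89, with its 46 min array at 10.75 and the other 3 arrays of 30 to 54 min at 8.33 to 8.94. HHT1 rose least among the H3 and H4 genes, by 0.90 (SE 0.17). Histone genes come in near-identical pairs, so the probe sets of a pair may read each other.

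**Figure D3:**
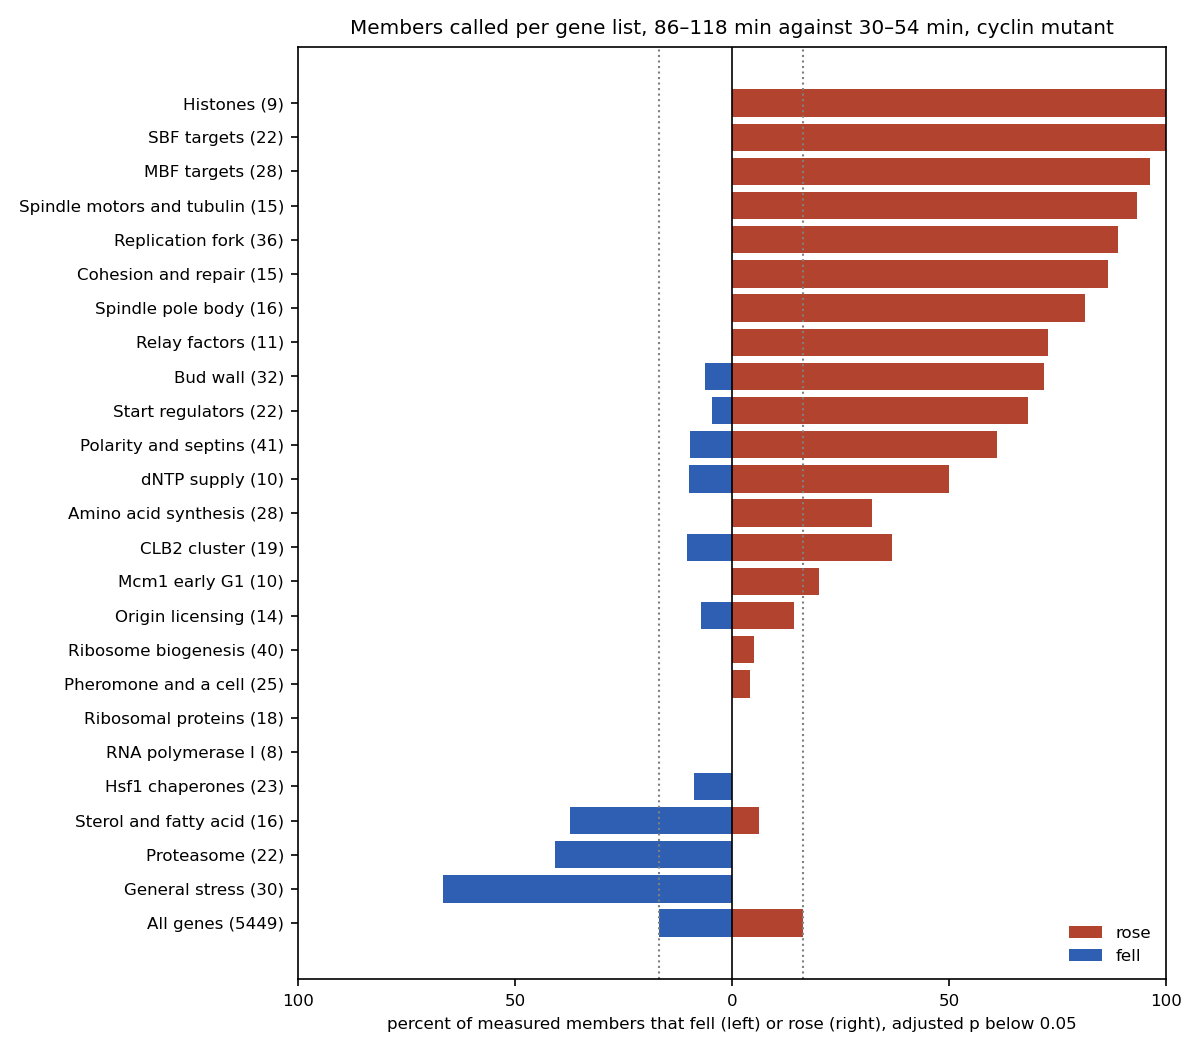
Percent of the measured members of 24 lists that fell (left) or rose (right) at an adjusted p under 0.05, at 86 to 118 min against 30 to 54 min, with the number of members in brackets. Dotted lines mark the percent of all 5449 genes, 16.9 for falls and 16.4 for rises. SBF targets and histones reach 100% on the right, and the stress list extends farthest to the left.

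Genes of polarity and the septin ring rose unevenly. Of 41 members 25 rose, 15 strongly, and 4 fell, with a median of 0.62. The falls numbered 2 without the 94 min array and 1 without the 110 min array. Over all genes 16.4% rose and 16.9% fell, and the 4 falls among 41 do not exceed that share. GIN4 (YDR507C), a kinase of the septin ring at the bud neck, read 11.62, 11.78, 12.07, 11.49 and 11.78 at 86 to 118 min and 6.99, 7.33, 7.80 and 8.68 at 30 to 54 min. No arrays of the windows overlap, and the rise was 4.01 (SE 0.30), or 16.1-fold. HSL1, a related neck kinase that turns down Swe1, rose by 3.07 (SE 0.17). The bud site genes AXL2 and RSR1 rose by 3.09 (SE 0.31) and 2.81 (SE 0.31). GIC1 and GIC2, which bind active Cdc42, rose by 2.32 (SE 0.35) and 2.96 (SE 0.53).

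CDC42 (YLR229C), the small GTPase that sets the site of growth, rose by 0.48 (SE 0.09), with 12.66 to 12.80 at 86 to 118 min against 12.03 to 12.37 at 30 to 54 min. Its partners moved in both directions. BEM3, a GTPase-activating protein for Cdc42, rose by 0.62 (SE 0.10, adjusted p = 0.00279), with 10.80 to 11.07 at 86 to 118 min and 10.11 to 10.47 at 30 to 54 min. BEM2, another GTPase-activating protein, rose by 0.30 (SE 0.09, adjusted p = 0.0344), a call lost in 10 of 19 alternative settings, among them the omission of the 46 and 86 min arrays together and of the 30, 38, 46, 94, 102, 110 or 118 min array alone, at an adjusted p of up to 0.11. CDC24, its exchange factor, read 10.22, 9.97, 10.14, 10.14 and 10.12 at 86 to 118 min and 10.66, 10.46, 10.48 and 10.58 at 30 to 54 min, and fell by 0.43 (SE 0.08, adjusted p = 0.00749). BEM1, the scaffold that holds Cdc24, fell by 0.63 (SE 0.16), and RGA2, a GTPase-activating protein, fell by 0.73. Without the 110 min array both calls were lost, and RGA2 lost its call without the 94 min array too, with adjusted p values of up to 0.0639 for BEM1 and 0.0658 for RGA2. BNI1, the formin that makes actin cables, fell by 0.27, a call lost without the 38, 94, 102, 110 or 118 min array. The septins CDC3 and CDC11 rose by 0.61 (SE 0.13) and 0.75 (SE 0.20), and CDC10 differed by 0.19 and did not pass. The call of CDC11 was lost when any of the 94, 102, 110 or 118 min arrays was left out, at an adjusted p of up to 0.0695.

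Of 32 genes of the growing bud wall 23 rose, 17 strongly, and 2 fell, with a median of 1.09. The 2 falls among 32 do not exceed the 16.9% of all genes that fell. Besides TOS6 and SRL1, SCW10, a glucanase-like wall protein, rose by 3.89 (SE 0.43), CRH1, which links chitin to glucan, by 3.71 (SE 0.23), and ECM33, a wall protein anchored in the membrane, by 2.94 (SE 0.30). FKS1 (YLR342W), the catalytic subunit of glucan synthase, read 13.61 to 13.82 at 86 to 118 min, while its arrays at 30, 38, 46 and 54 min read 11.50, 12.27, 12.77 and 13.27. It rose by 1.28 (SE 0.31, adjusted p = 0.0156), and leaving out the 38, 94 or 110 min array gave an adjusted p of up to 0.0593. CHS3, the main chitin synthase, rose by 0.99 (SE 0.15) and GAS1, which elongates glucan, by 1.36 (SE 0.29). SKN1, a relative of the glucan synthesis gene KRE6, fell by 1.52 (SE 0.34), and PST1, a wall protein of the same family as ECM33, fell by 1.22.

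Spindle genes rose with them. Of 16 spindle pole body genes 13 rose, 8 strongly, with a median of 0.92. NUD1, a pole component that anchors the exit network, rose by 2.03 (SE 0.20), SPC97, of the gamma-tubulin complex, by 1.44 (SE 0.36), and SPC42, of the central plaque, by 1.03 (SE 0.23). SPC42 and SPC97 read 10.04 and 10.39 at 46 min, against 8.39 to 9.16 on the other arrays of 30 to 54 min, and without the 46 and 86 min arrays 14 of the 16 genes rose. Without the 38 min array 8 did, and SPC97 lost its call without the 38 or the 94 min array, at an adjusted p of up to 0.0660. Of 15 motor, tubulin and microtubule-binding genes 14 rose, 6 strongly, with a median of 0.89. STU2 (YLR045C), which speeds microtubule growth, read 9.76, 10.28, 10.36, 10.72 and 10.75 at 86 to 118 min and 8.28, 8.15, 8.69 and 8.46 at 30 to 54 min, a rise of 2.00 (SE 0.21) with no overlap. The kinesins CIN8 and KIP1, which push the poles apart, rose by 1.63 (SE 0.23) and 1.07 (SE 0.22). ASE1, which bundles the midzone, differed by 0.06 and did not pass.

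Of 11 transcription factors that pass the program on from G1 to mitosis 8 rose, 7 strongly, with a median of 1.62. HCM1, the forkhead factor of S phase, rose by 2.20 (SE 0.32), and the related FKH1 by 1.19 (SE 0.28), which without the 38 min array had an adjusted p of 0.0508. NDD1 (YOR372C), the activator of the mitotic CLB2 cluster, read 8.94, 10.33, 9.66, 10.43 and 9.84 at 86 to 118 min against 8.28, 8.26, 8.24 and 8.30 at 30 to 54 min. The 30 to 54 min arrays are within 0.1 unit of each other and lie below all the others, and the rise was 1.61 (SE 0.24, adjusted p = 0.00211). FKH2 and MCM1, the partners that Ndd1 joins on promoters, differed by -0.08 (SE 0.12) and -0.15, and neither passed. SWI5, a target of that complex, read 7.17, 7.54, 7.38, 8.30 and 8.23 at 86 to 118 min and 6.52, 6.81, 7.30 and 6.93 at 30 to 54 min. It rose by 0.85 with an adjusted p of 0.0462, and the call was lost in 11 of 18 alternative settings, among them the omission of the 30, 38, 54, 94, 102, 110 or 118 min array, at an adjusted p of up to 0.165.

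Members of the CLB2 cluster itself moved unevenly. Of 19 measured members 7 rose, 4 strongly, and 2 fell, 1 strongly, with a median of 0.27. Over all genes 16.4% rose and 16.9% fell, and the 2 falls among 19 do not exceed that share. Without the 38 or the 110 min array 3 rose, without the 118 min array 4, and without the 46 and 86 min arrays 9 rose and 3 fell. KIN3 (YAR018C), a mitotic kinase of the NIMA family, rose by 1.85 (adjusted p = 0.00148), with 9.88 to 10.68 at 86 to 118 min and 8.19 to 9.18 at 30 to 54 min. BUD4, an anchor of the bud neck, rose by 1.81 (SE 0.41), and its arrays at 86, 94, 102, 110 and 118 min read 8.10, 8.96, 9.09, 10.11 and 10.10. ALK1, a haspin-like kinase, rose by 1.63, and lost its call without the 38 or the 110 min array, at an adjusted p of up to 0.0653. CDC5, the polo kinase, CDC20, an activator of the anaphase-promoting complex, and the cytokinesis gene HOF1 differed by 0.51, 0.16 and 0.16, and none passed. TPO3, a polyamine exporter, fell by 1.30 (SE 0.21), with 7.72 to 8.71 at 86 to 118 min and 9.35 to 9.94 at 30 to 54 min.

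The probe sets of the 6 deleted cyclins did not read alike. Whether each probe set lies inside its disrupted stretch is not known here, so their levels do not check the genotype. CLB1 (YGR108W), also present under the GAL1 promoter, read 11.34, 11.37, 11.21, 11.26 and 11.10 at 86 to 118 min and 11.33, 10.97, 11.12 and 11.23 at 30 to 54 min in the mutant. In wild type it read 7.93 to 10.73 at 86 to 118 min and 6.93 to 7.48 at 30 to 54 min, below every one of these mutant arrays. GAL1 itself read 10.53 to 11.29 at 86 to 118 min and 11.18 to 11.80 at 30 to 54 min in the mutant, above the 8.78 to 9.09 and 9.14 to 10.05 of wild type, and its change of -0.46 in the mutant did not pass (adjusted p = 0.0643), though it passed at -0.63 without the 46 and 86 min arrays.

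CLB2 (YPR119W) read 8.09, 7.06, 7.13, 7.15 and 7.13 in the mutant at 86 to 118 min, against 6.48, 6.83, 8.22 and 6.89 at 30 to 54 min. The high values are those of the 86 and 46 min arrays described above, and the difference of 0.21 (SE 0.38) did not pass. Without both arrays it was 0.42 and passed. In wild type CLB2 read 8.06 to 10.83 at 86 to 118 min and 6.63 to 7.29 at 30 to 54 min. CLB3 lay at 6.72 to 6.96 and 6.08 to 6.99 in the mutant, against 10.13 to 10.64 and 9.67 to 9.79 in wild type, and CLB4 at 7.65 to 8.24 and 6.97 to 8.05, against 9.58 to 10.28 and 8.97 to 9.14. For both, all mutant arrays lie below all wild-type arrays. CLB5 lay at 10.14 to 10.66 and 9.74 to 10.32 in the mutant, against 10.18 to 10.67 and 9.07 to 9.33 in wild type. Its rise of 0.33 in the mutant (adjusted p = 0.0303) lost its call without the 30, 46, 94, 102, 110 or 118 min array and without the block, at an adjusted p of up to 0.109. CLB6 rose in the mutant by 1.00 (SE 0.14, adjusted p = 0.00161), with 9.66 to 10.04 and 8.63 to 9.19, against 10.66 to 10.99 and 8.41 to 9.39 in wild type. Counts over the 6 were 2 rises and no fall, and 4 rises without the 46 and 86 min arrays, CLB2 and CLB3 (at 0.51) being added. Levels of the genotypes come from different courses, and course and genotype cannot be told apart in them.

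**Figure D4:**
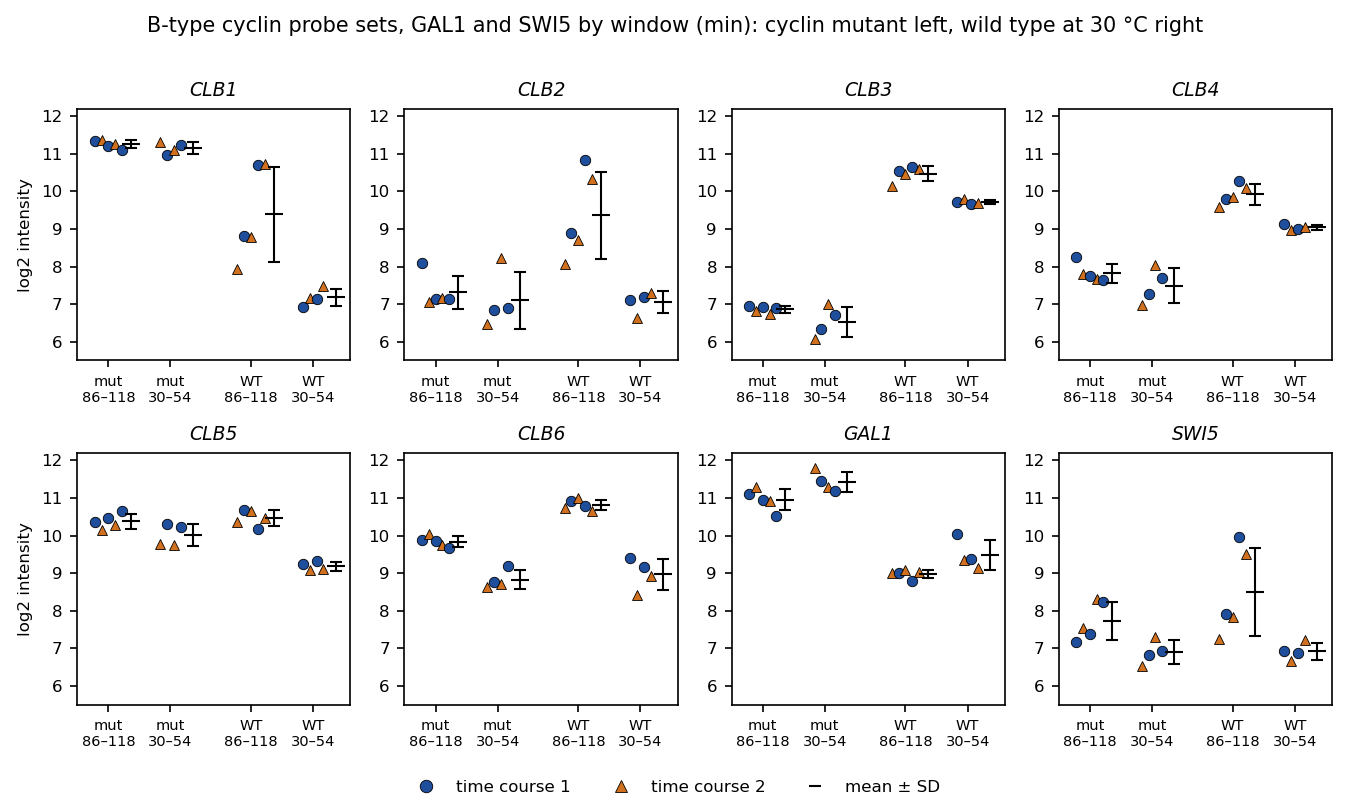
Log2 intensity on single arrays for the 6 B-type cyclin probe sets, GAL1 and SWI5, with the cyclin mutant at left and wild type at 30 °C at right, and 86 to 118 min left of 30 to 54 min in each genotype. Circles are course 1, triangles course 2, and bars the mean ± SD (n = 5 and n = 4). CLB3 and CLB4 are lower in the mutant on all arrays, CLB1 and GAL1 are higher, and CLB2 in the mutant stands up on 2 arrays only.

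The change between the windows was set against that of wild type at 30 °C at the same time labels. Of 5449 genes, limma called 0 (0%) with a different change in the mutant, while 311 had an unadjusted p under 0.05. A p that misses the threshold does not show that the genotypes changed alike. Within wild type alone, limma called 1276 rises and 1279 falls. The median change of SBF targets was 2.66 in the mutant and 2.78 in wild type, that of MBF targets 2.35 and 2.15, that of histones 1.32 and 1.26, and that of polarity genes 0.62 and 0.61. Other lists had medians farther apart. The median of the B-type cyclins was 0.32 in the mutant and 1.59 in wild type, that of the CLB2 cluster 0.27 and 0.56, and that of general stress genes -1.91 and -2.94. Methionine and sulfate genes had -0.38 in the mutant and 0.27 in wild type, Hsf1 chaperones -0.04 and -0.70, and phosphate genes 0.15 and 0.73. CLN2 rose by 4.01 in the mutant and 3.80 in wild type, a difference of 0.21 (SE 0.36). RNR1 rose by 4.35 and 4.37, a difference of -0.02 (SE 0.64). HTB2 rose by 2.51 and 2.55, a difference of -0.04 (SE 0.39).

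The smallest adjusted p of this comparison was 0.103, for CLB5, with a change of 0.33 in the mutant and 1.29 in wild type, a difference of -0.96 (SE 0.15). KIN3 followed, with 1.85 in the mutant and 0.23 in wild type, a difference of 1.63 (SE 0.30, adjusted p = 0.178). KIN3 read 7.57 to 8.08 at 86 to 118 min and 7.47 to 7.77 at 30 to 54 min in wild type, below all 9 mutant arrays. Without the 46 min array of the mutant its adjusted p was 0.00833, and without the 110 min array 0.0431. Without that array CLB5 and SCM4, a gene for a mitochondrial outer membrane protein, had adjusted p values of 0.0481 and 0.0431, with differences of -1.01 and -0.86. CLB2 and CLB1 differed by -2.15 (SE 0.70) and -2.13 (SE 0.65), at adjusted p values of 0.602 and 0.577.

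The lists had moved by different amounts on the 3 arrays between the windows, which entered no test. As a share of the change of the list mean in the same course, general stress genes stood at 97.3% at 62 min, 89.5% at 70 min and 104% at 78 min. Replication fork genes stood at 62.9%, 60.0% and 102%, MBF targets at 58.4%, 57.2% and 98.2%, and SBF targets at 53.3%, 49.0% and 89.5%. Bud wall genes stood at 49.1%, 46.7% and 78.1%, spindle motors and tubulins at 20.3%, 30.2% and 50.2%, and histones at 7.39%, 10.5% and 57.9%. In single genes, RNR1 read 12.70, 12.69 and 13.48 at these times and CLN2 9.86, 9.51 and 11.66, while HTB2 read 11.82, 11.95 and 12.85. The 70 min array comes from course 1 and the others from course 2, so a lower share at 70 than at 62 min compares different courses.

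**Figure D5:**
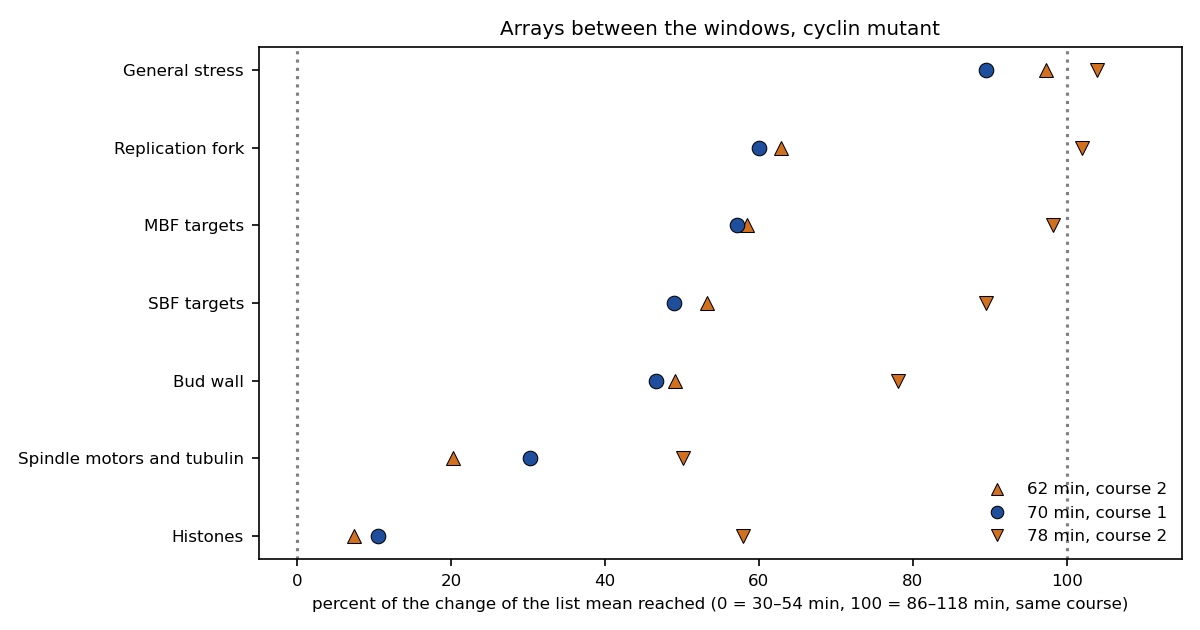
Share of the change of the list mean (%, 0 at 30 to 54 min and 100 at 86 to 118 min of the same course) on the arrays at 62 min (course 2, upward triangles), 70 min (course 1, circles) and 78 min (course 2, downward triangles). The stress list is near 100% from 62 min on, and histones are near 10% until 70 min.

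Of 30 general stress genes, many of them driven by Msn2 and Msn4, 20 fell, against 16.9% of all genes. None rose, and the median of the list was -1.91. Without the 30, 38, 94, 102 or 118 min array 12 fell, without the 110 min array 11, and without the 46 and 86 min arrays together 15. YGP1 (YNL160W), a secreted glycoprotein made in starved cells, read 10.44, 10.55, 9.36, 9.83 and 8.97 at 86 to 118 min, against 14.39, 14.30, 14.19 and 13.89 at 30 to 54 min. It fell by 4.32 (SE 0.31, adjusted p = 0.000133), with no overlap. HSP12, a small membrane-protecting protein, read 10.56, 12.27, 10.01, 12.02 and 9.96 at 86 to 118 min and 14.95, 14.75, 14.65 and 14.03 at 30 to 54 min, and fell by 3.51. Its arrays of course 2, at 94 and 110 min, lie above those of course 1.

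CTT1, cytosolic catalase, read 7.90 to 8.88 at 86 to 118 min, and 14.18, 13.54, 12.02 and 9.33 at 30, 38, 46 and 54 min. It fell by 3.84 (SE 0.81), and most of the drop lay inside the window of 30 to 54 min. NQM1, a transaldolase that is not on the list, fell by 4.98 (SE 0.37), or 31.5-fold, and TKL2, a transketolase, fell by 4.02 (SE 0.84). The trehalose synthesis genes TPS1 and TPS2 fell, with differences of -1.75 and -1.83, but both calls were lost without the 30, 38, 86, 94, 102, 110 or 118 min array, at an adjusted p of up to 0.126 for TPS1. The glycogen genes GSY1 and GLC3 differed by -0.35 and -0.54 and did not pass. The Hsf1 chaperone list had 2 falls among 23 members, a share no higher than the 16.9% of all genes that fell. None fell without the 46 and 86 min arrays together or without the 30, 38, 94, 102 or 110 min array. Without the 54 min array 6 fell.

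Of 40 ribosome biogenesis genes 2 rose, 1 without the 94 or the 110 min array and 4 without the 54 min array. Over all genes 16.4% rose, and the 2 rises among 40 do not exceed that share. The median of the 40 genes was 0.42, and ran from 0.09 to 0.65 over the alternative settings with both courses. It was 0.13 in course 1 alone and 0.79 in course 2 alone, against 0.98 in wild type. At 30 to 54 min the list mean was 12.0 in course 1, sampled at 38 and 54 min, and 11.23 in course 2, sampled at 30 and 46 min. Time and course cannot be told apart in these medians. In the comparison as fitted, none of 8 RNA polymerase I subunits or 18 ribosomal protein genes passed. DBP2 (YNL112W), an RNA helicase, read 12.90 to 13.02 at 86 to 118 min, while its arrays at 30, 38, 46 and 54 min read 10.60, 10.73, 11.45 and 12.49, and it rose by 1.62 (SE 0.35). Of 22 proteasome genes 9 fell, against 16.9% of all genes, with a median of -0.73. This count was 0 without the 46 and 86 min arrays and ran from 0 to 21 as single arrays were left out, with 0 to 3 without the 30, 38, 86, 94, 102 or 110 min array and 21 without the 54 min array.

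The counts of the nutrient lists stand against 16.4% of all genes that rose and 16.9% that fell. No list was tested against these shares, and the purine and respiration counts lie near them. Of the nutrient lists, amino acid synthesis had 9 rises among 28 members, with 17 without the 54 min array. ARG1, argininosuccinate synthase, rose by 1.71 (SE 0.43), a call lost without the 38, 94 or 110 min array at an adjusted p of up to 0.0695. HXT2 (YMR011W), a high-affinity glucose transporter, read 11.39, 12.43, 11.43, 12.65 and 11.81 at 86 to 118 min and 9.75, 9.50, 9.31 and 10.35 at 30 to 54 min. It rose by 2.25 (SE 0.31) with no overlap, and 3 of 11 genes of hexose transport rose and 1 fell. Without the 94 or the 110 min array 1 rose, and without any of the 30, 38, 54, 94, 102, 110 and 118 min arrays in turn none fell. Sterol and fatty acid synthesis had 1 rise and 6 falls among 16, and galactose genes had 2 falls among 7, of which none was left without the 38 or the 110 min array. Of 19 genes of alternative carbon use 3 rose and 5 fell, but 1 rose and 2 or 3 fell without the 38, 86, 94, 102, 110 or 118 min array, and 3 fell without the 30 min array. No methionine or sulfate gene passed among 17 in the comparison as fitted, while 4 fell without the 30 min array and 1 rose without the 46 and 86 min arrays together or without the 46 or the 54 min array. Purine genes had 3 rises and 3 falls among 15, with 1 rise without the 38, 94, 102, 110 or 118 min array and 5 falls without the 30 min array. Respiration had 3 of each among 24. Its rises numbered 0 without the 94 or the 110 min array and 1 without the 38 min array, and its falls 1 without the 30, 38, 94, 102, 110 or 118 min array and 5 without the 46 min array. Phosphate genes had 2 rises and 1 fall among 14, with no rise without the 38, 94, 102, 110 or 118 min array, 1 without the 86 min array or without the 46 and 86 min arrays together, and 4 without the 54 min array. The fall was not called without the 38 or the 110 min array, and 2 fell without the 30 min array.

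The samples carry the MATa label. The counts of this paragraph stand against 16.4% of all genes that rose and 16.9% that fell. No list was tested against these shares, and the falls among meiosis markers lie near them. Among 25 pheromone and a-cell genes 1 rose, PRM3, which acts in nuclear fusion, by 0.64 (SE 0.13), and none fell. Without the 46 and 86 min arrays together 2 rose and 1 fell, without the 54 min array 3 rose, and without the 30 or the 86 min array 1 fell. Of 4 alpha-cell markers 1 passed, the alpha-factor gene MF(ALPHA)1, at 0.51, and none without the 46 and 86 min arrays, or without the 38, 94, 102 or 110 min array. Of 11 meiosis markers 2 passed, SPO11 at -0.28 and NDT80 at -0.57, SPO11 losing its call in 13 of 18 alternative settings and NDT80 without the 110 min array. Without the 46 and 86 min arrays together, or the 46 min array alone, 2 other markers rose and 1 fell. Of 5 measured genes used as disruption markers, URA3 fell by 0.48 (SE 0.10) and HIS2 fell by 0.54, the call of HIS2 being lost without the 38 or the 94 min array.

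Levels after 118 min differed between the lists. SBF targets averaged 11.24 over the 18 mutant arrays from 126 to 262 min, against 11.55 at 86 to 118 min, and MBF targets 10.30 against 11.34. Histones averaged 13.17 against 13.15, and HTB2 stayed at 13.34 to 13.84. Between genotypes, the CLB2 cluster averaged 9.65 in the mutant and 10.58 in wild type from 126 to 262 min. CLB2 read 6.77 to 7.20 in the mutant and 9.70 to 11.51 in wild type. These are levels, those of the genotypes come from separate courses, and none was tested.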

How the data were processed

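Only arrays labelled as the cyclin mutant or wild type at 30 °C enter the tests, 9 of each. Per the submitters' processing notes the authors used the affy package (no version given), and the deposited values are probe-set intensities on a linear scale, from 22.2 to 35171 over all arrays. The summary and normalization method is not given in the sources used here. The plan had taken them as log2 already, so they were put on that scale here, with nothing added (pseudocount 0). Of 5900 probe sets 5498 carried 1 gene name, and the probe set with the highest mean was kept for the 47 genes with several, which left 5449 genes, all matched to the RefSeq gene table (12 symbols updated). The 14 arrays of wild-type course 2 were moved by 1 probe set, a displacement inferred from the values.

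Tests used limma 3.58.1 (lmFit, eBayes) in R 4.3.3 with the time course as a fixed block and Benjamini-Hochberg adjustment over all 5449 genes. The comparison with wild type fitted 18 arrays with 4 course intercepts. Tables and figures were made with pandas 2.3.3 and matplotlib 3.10.9. The fits were tested on simulated data with independent errors, which serial arrays need not have. Of simulated 2-fold changes, 66% were recovered in the mutant comparison and 60% in the comparison with wild type. Precision is limited by the number of arrays.

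The windows, the 36 gene lists and the tests were chosen with earlier results of these data known; 1 list is not reported here. The set of 301 named genes holds the 15 largest rises and the 15 largest falls without overlap, and all called list members. It also holds all members of the Start, B-type cyclin, marker, histone, relay and galactose lists. Not every gene of the set is printed above, and among called list members the plan put the largest changes first. Uncalled members of other lists, SCM4 and the control genes TDH1 and ACT1 were named after their values were seen. No promoter or protein sequences were used here.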

Additional observations from a re-analysis of the deposited data

Results flagged for a closer look

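Values of single arrays of the cyclin mutant that stood apart within their window by Dixon's test are given here. It was run on 348 windows of genes, list means and array checks, set apart 1 array in 21 of them, and by chance sets apart about 1 in 20.

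At 86 to 118 min the 86 min array of course 1 stood apart in 15 of the 21. It was low in bud wall genes (list mean 12.35), relay factors (9.63), CDC28 (11.15), ECM33 (13.56), FKS1 (13.61), HSL1 (11.27), NUD1 (8.94), SIM1 (12.0) and SRL1 (13.08). All of these list means and genes are higher at 86 to 118 min than at 30 to 54 min. The 86 min array is the earliest of its window, and the part of time in these low values was not tested. It was high in meiosis markers (8.17), B-type cyclins (9.14), genes of alternative carbon use (8.47), CLB2 (8.09), CLB4 (8.24) and FMP16 (8.43). CLB2 and CLB4 were high at 46 min of course 2 too, at 8.22 and 8.05. Leaving out both arrays let CLB2 pass, at a difference of 0.42, with CLB4 still short of the threshold.

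Of the arrays at 30 to 54 min, the 46 min array was high in ACT1 (14.3), where the whole window spans 14.26 to 14.30. The 30 min array was high in CDC28 (10.92) and low in FKH2 (9.42), the 38 min array was low in MCM1 (10.65), and the 54 min array was high in MF(ALPHA)1 (8.07). The 94 min array had the smallest TDH1 gap between 3′ and 5′ probe sets of its window, 1.89. No gene and no list was set apart by a tested difference between the genotypes.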

How the results depend on the processing

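The mutant comparison was computed under 21 alternative settings and the comparison with wild type under 22. Among the 301 named genes, no call of the mutant comparison changed direction in any setting. The comparison with wild type had 0 calls as fitted, so it held none that could change direction. Rises and falls numbered 850 and 891 without the replicate block, which stands for the time course, 887 and 931 after quantile normalization, 837 and 969 with arrays centred on their medians, 901 and 914 with 50 added to each value, 901 and 901 with a trended prior, 894 and 920 with probe sets averaged, and 972 and 1027 with the spread shared with wild type. They numbered 770 and 788 among the 4086 genes left without the dimmest ones, and 970 and 1041 with the 54 and 86 min arrays out of the windows. Leaving out single arrays or a whole course gave 17 to 1100 rises and 13 to 1132 falls. The lowest counts came from 1 course alone: 17 and 13 without course 1, and 237 and 84 without course 2, with fewer arrays in the fit. Rises of at least 2-fold numbered 236 to 359 and falls 149 to 419 as single arrays were left out, and falls of at least 2-fold numbered 402 with the 54 and 86 min arrays out of the windows.

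Of the set of 301 named genes 280 were called, a share fixed largely by the choice of called list members. Of these 280 genes, 189 kept their call in each of the 18 or 19 settings with both courses in which they were tested. Without the dimmest genes, lists lost members by construction: 9 Start regulators, 5 spindle pole body genes, 8 spindle motors and 4 relay factors rose. With the 54 and 86 min arrays out of the windows, 21 proteasome and 15 amino acid genes were called, and the cause was not tested.

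Genes whose change differed from wild type numbered 0 in most settings, 0 to 3 as arrays or courses were left out, and 1 (KIN3) without the 46 and 86 min arrays, a setting chosen after the data were seen. Without wild-type course 1 they were ADH2, CLB5 and LEU2, and without mutant course 2 KIN3 and SCM4. With wild-type course 2 as deposited, 0 genes were called and 910 had an unadjusted p under 0.05. The counts of promoter motifs that had been planned were not run. No detection call was used here, so whether the dim CLB2, CLB3 and CLB4 probe sets of the mutant lie above background is not known.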
